A study of Mus musculus with 6 samples.

Results

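Ly6d and its relatives of the Ly6 surface protein family were followed in the livers of mice that lack the transcription factor Slug in hepatocytes. The genes were taken from a list of 8 names (Ly6d, Ly6a, Ly6c1, Ly6c2, Ly6e, Ly6h, Ly6k and Gpihbp1), matched by symbol to probe sets that carry a single gene. Of the 8 genes, 7 were matched, among 22180 measured genes in all, and Ly6a was not analysed here. Where a gene had several probe sets, the brightest on average was read, and no filter on low values was applied. Ly6d was chosen by the size of its own difference between the groups of mice. The list as a whole was drawn up with results of this comparison known, so the differences of the 7 genes are given as a description with no test.

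HKO mice combine a floxed Slug gene (symbol Snai2) with albumin-CreERT2, a Cre recombinase that tamoxifen switches on and that the albumin promoter drives in hepatocytes. Con mice are littermates with the genotype Slug f/f, and the sources used here do not say whether they carried the Cre transgene. Nor do the labels say how the Cre was switched on. All 6 mice were C57BL/6J males, 8 weeks old when they were put on a diet that drew 60% of its calories from fat, and they ate it for 11 weeks. RNA of 3 HKO livers and 3 Con livers was hybridised to Affymetrix arrays that probe whole transcripts, each mouse on its own array, and values are on the log2 scale of the authors' RMA (robust multi-array average) procedure. Each step of 1 is a doubling of the array signal.

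Ly6 proteins are small cysteine-rich proteins whose compact fold is held by disulphide bonds, and most sit on the outer face of the plasma membrane on a glycosylphosphatidylinositol (GPI) lipid anchor. In mice many of their genes lie in a cluster on chromosome 15, and their products are known as markers that tell blood cell types, endothelium and epithelia apart. Gpihbp1 belongs to the same fold family and carries lipoprotein lipase, the enzyme that frees fatty acids from circulating triglyceride, to the inner face of capillaries.

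The 6 arrays were alike, with a lowest correlation over all genes of 0.986 for any pair. Snai2, the targeted gene, stood at 4.62, 5.23 and 5.69 in HKO and at 7.74, 7.69 and 7.39 in Con. The mean over 10 hepatocyte markers ran from 10.1 to 10.4 in HKO and from 10.1 to 10.2 in Con. The dimmest of them, Ass1, a urea cycle enzyme named after its values were seen, ran from 3.91 to 5.82 in HKO and from 4.31 to 5.48 in Con. Over all genes, 45 of 22180 (0.203%) passed an adjusted p of 0.05 in limma, 25 lower (0.113%) and 20 higher (0.0902%) in HKO. Leaving out HKO replicate 1 gave 25 genes, HKO replicate 2 gave 6, HKO replicate 3 gave 16, Con replicate 1 gave 5, Con replicate 2 gave 4 and Con replicate 3 gave 32. An unadjusted p under 0.05 was reached by 11.9% of all genes, the share to set beside such counts in the lists.

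Ly6d, known as ThB, marks lymphoid progenitors bound for the B cell lineage and is also carried by stratified epithelia. Its log2 values were 4.86, 4.79 and 4.95 in the 3 HKO livers, against 7.70, 7.98 and 7.63 in the 3 Con livers. All HKO livers were low and all Con livers high, and the groups stood far apart: the lowest Con liver exceeded the highest HKO liver 6.44-fold. The means were 4.86 ± 0.080 (SD, n = 3) in HKO and 7.77 ± 0.18 (SD, n = 3) in Con. The difference, HKO minus Con, was -2.91 ± 0.12 (limma's moderated SE), which leaves the HKO signal at 13.3% of the Con signal, 7.51-fold lower. By size of difference Ly6d ranked 4 among the 22180 genes. Its spread between mice of a group was not unusual, since 41.7% of genes had a smaller pooled within-group SD. The HKO mean was above the median over genes (3.94). Over the 15 processing alternatives, including leaving out each array in turn, the difference stayed between -2.98 and -2.81. Several of these could not move it: changes of the variance model, the replicate block, the filter on low values and the choice among probe sets. In pieces of whole liver, fewer cells that carry Ly6d and less Ly6d RNA per cell cannot be told apart.

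**Figure D1:**
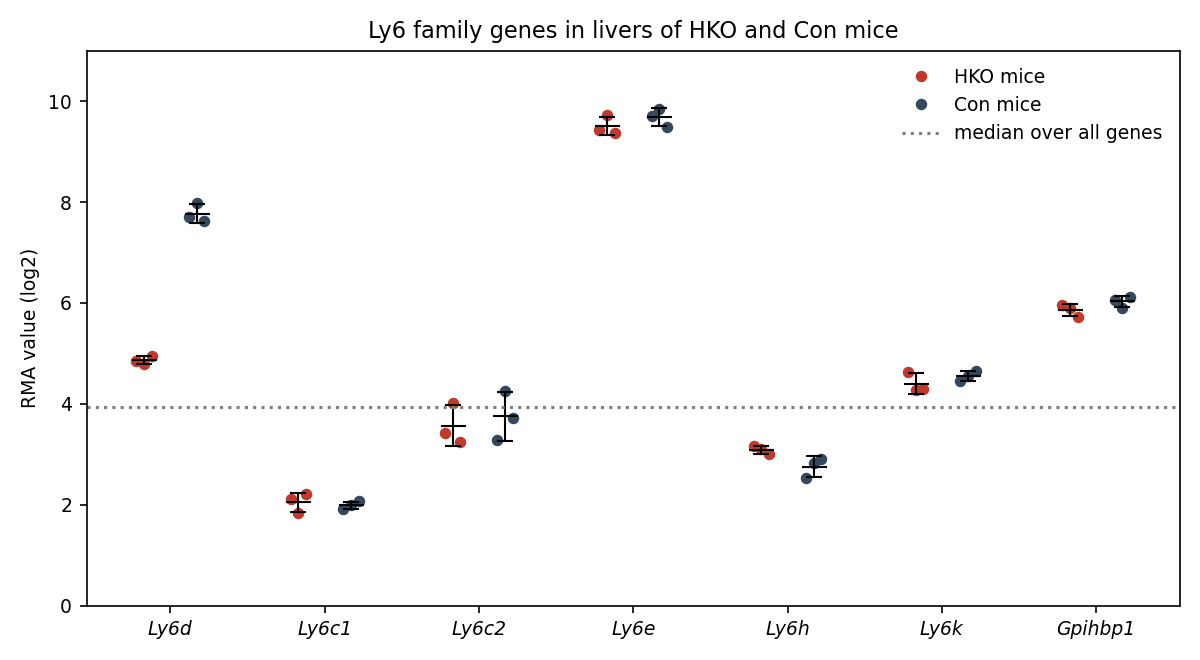
RMA values (log2) of the 7 measured Ly6 family genes, 1 point per liver, HKO left of Con for each gene, with the mean and SD (n = 3 each) in black and the median over all genes (3.94) as a dotted line. Ly6d sits at 4.79 to 4.95 in HKO and 7.63 to 7.98 in Con, while the values of Ly6c1, Ly6c2, Ly6e, Ly6k and Gpihbp1 overlap between the groups.

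The other 6 measured genes differed by much less than Ly6d, and the largest of their differences was 0.33 (Ly6h). Of the 7 genes, 5 had lower and 2 higher HKO means, and the median difference of the 7 was -0.17, beside -0.0081 over all genes. Limma's threshold was passed by 1 of the 7 (Ly6d), beside 0.203% of all genes; since the choice of Ly6d used this comparison, nothing is read from that count. Groups did not overlap for 2 of the 7, Ly6d and Ly6h, or 28.6%, where 18.2% of all genes had groups that did not overlap, 10.1% with HKO below Con and 8.05% with HKO above Con. That share includes Ly6d, chosen by its difference, so nothing is read from it either. Among the other 6 genes, Ly6h alone had groups that did not overlap. The median over the 6 genes other than Ly6d was -0.16, and it was -0.016 without Con replicate 2 and -0.062 without HKO replicate 3.

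**Figure D2:**
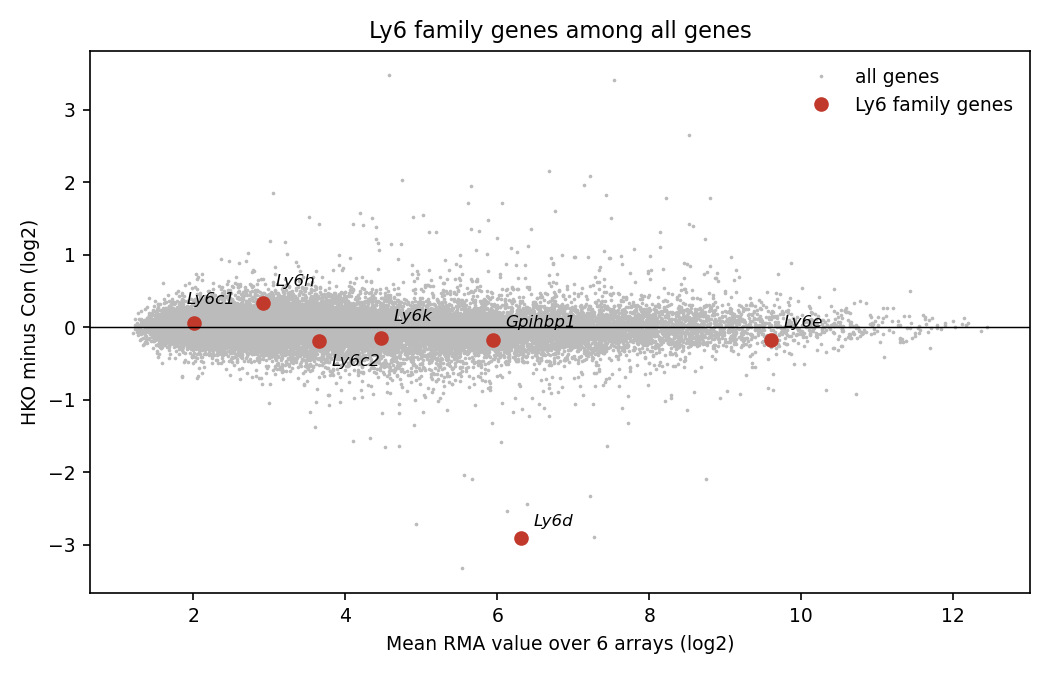
Difference between the groups (HKO minus Con, log2) against the mean RMA value over the 6 arrays (log2), 1 grey point per gene for 22180 genes, with the 7 Ly6 family genes in red. Ly6d lies at -2.91, apart from the band that holds most genes, and the other 6 lie between -0.19 and 0.33, inside it.

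Ly6e is an interferon-inducible member with wide tissue expression, known for its effects on virus entry. It was read at 9.44, 9.72 and 9.37 in HKO livers and at 9.71, 9.85 and 9.50 in Con livers. The groups overlapped, with HKO replicate 2 above Con replicates 1 and 3. The difference was -0.18 ± 0.14 (SE), with a 95% interval from -0.49 to 0.14. Other interferon response genes leaned the other way. Of 18 measured, 15 had higher HKO means and 9 had all HKO values above all Con values (8.05% of all genes did), but 0 passed limma's adjusted threshold and 6 had an unadjusted p under 0.05. The mean of the list ran from 5.92 to 6.00 in HKO and from 5.67 to 5.70 in Con. Ifit1, an antiviral RNA-binding protein, stood at 5.99 ± 0.18 in HKO and 5.32 ± 0.18 in Con (SD, n = 3 each; limma adjusted p = 0.136, and 0.0494 with a variance trend). Usp18, which removes the ubiquitin-like protein ISG15, stood at 6.48 ± 0.19 in HKO and 5.95 ± 0.19 in Con (SD, n = 3 each; limma adjusted p = 0.223). Whether Ly6e differs from these genes in its response was not tested.

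Gpihbp1 values were 5.95, 5.91 and 5.72 in HKO livers and 6.06, 5.91 and 6.13 in Con livers. The lower end of Con lay inside the HKO range, so the groups overlapped. The difference was -0.17 ± 0.11 (SE), with a 95% interval from -0.43 to 0.088. Of 11 measured genes that work with lipoprotein lipase, including Lpl itself, 0 passed limma's adjusted threshold, and 5 had an unadjusted p under 0.05, all lower in HKO. The median difference of the 11 was -0.20. Angptl8, a secreted regulator of the lipase, stood at 7.89 ± 0.26 in HKO and 8.51 ± 0.21 in Con (SD, n = 3 each; limma adjusted p = 0.220). Cd36, which takes up the freed fatty acids, stood at 8.94 ± 0.39 in HKO and 9.60 ± 0.049 in Con (SD, n = 3 each; limma adjusted p = 0.237). Lpl, named after its values were seen, was at 4.80, 4.64 and 5.29 in HKO and at 5.83, 5.86 and 5.27 in Con (limma adjusted p = 0.251), and HKO replicate 3 lay above Con replicate 3.

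Capillary endothelium is where Gpihbp1 resides, and none of the endothelial list was called: 0 of 17 markers passed limma's adjusted threshold and 4 had an unadjusted p under 0.05, all lower in HKO. HKO means were lower for 11 of the 17 and higher for 6, with a median difference of -0.066. The highest difference was 0.20, for Fcgr2b, named after its values were seen. The mean of that list ran from 6.68 to 6.79 in HKO and from 6.79 to 6.89 in Con. Cd34, a surface sialomucin, stood at 3.29 ± 0.30 in HKO and 3.85 ± 0.066 in Con (SD, n = 3 each; limma adjusted p = 0.237). Pecam1, an adhesion molecule of endothelial junctions, stood at 6.61 ± 0.048 in HKO and 6.90 ± 0.019 in Con (SD, n = 3 each; limma adjusted p = 0.293). The part of endothelial RNA in the Gpihbp1 values was not tested.

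Ly6c1 and Ly6c2 are closely related genes of the cluster. In mice Ly6c2 is known as the form carried by inflammatory monocytes and some T cells, and Ly6c1 is the form of endothelial cells. Their promoter windows, from RefSeq (GRCm38.p6, minus strand, 250 bases before to 50 after the start), are printed because they show how alike these genes are and which E-boxes they hold. The capitals mark each CANNTG, the core that basic helix-loop-helix and Snail family factors read:
Ly6c1, chr15:75048788-75049087: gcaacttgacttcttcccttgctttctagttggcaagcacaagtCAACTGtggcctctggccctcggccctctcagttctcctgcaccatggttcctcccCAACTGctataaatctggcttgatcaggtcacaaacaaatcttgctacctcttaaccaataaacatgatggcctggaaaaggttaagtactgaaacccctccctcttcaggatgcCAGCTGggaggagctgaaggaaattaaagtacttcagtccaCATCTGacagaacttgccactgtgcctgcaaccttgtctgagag
Ly6c2, chr15:75111922-75112221: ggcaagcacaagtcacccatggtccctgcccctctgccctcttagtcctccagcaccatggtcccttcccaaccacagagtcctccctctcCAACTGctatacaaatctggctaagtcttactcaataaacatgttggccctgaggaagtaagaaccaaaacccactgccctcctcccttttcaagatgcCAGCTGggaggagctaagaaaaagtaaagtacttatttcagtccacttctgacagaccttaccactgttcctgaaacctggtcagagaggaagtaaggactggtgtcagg
In a global alignment with free ends, 208 of 266 aligned bases (78.2%) were the same in the printed windows, and over the other pairings of a Ly6c1 with a Ly6c2 window the share ran from 77.6% to 89.3%. The table holds 2 windows for each gene, which overlap, and the one further upstream is printed. The printed Ly6c1 window holds 4 CANNTG and the printed Ly6c2 window 2, the other window of each gene holds 2, and 72.3% of the 32851 windows in the table hold at least 1. None of these windows holds CAGGTG, searched on both strands (CAGGTG or CACCTG), the recognition sequence known for Snail family proteins, which 20.2% of all windows hold. Windows of the other members were not used here.

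Ly6c1 values were 2.11, 1.84 and 2.20 in HKO livers and 1.91, 1.99 and 2.07 in Con livers. All 6 values lay below the median over genes and the groups overlapped, with a difference of 0.063 ± 0.12 (SE) and a 95% interval from -0.22 to 0.34. The direction turned without HKO replicate 3, to -0.014. The probe set is not shown to be above background.

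Ly6c2 values were 3.42, 4.02 and 3.25 in HKO livers and 3.28, 4.25 and 3.73 in Con livers. The groups overlapped across nearly the whole range, and in each group 1 liver, replicate 2, was the highest. Both means, 3.56 in HKO and 3.75 in Con, lay below the median over genes, and the probe set is not shown to be above background. The difference was -0.19 ± 0.27 (SE), with a 95% interval from -0.81 to 0.43. Leaving out HKO replicate 1, HKO replicate 2 or HKO replicate 3 gave -0.12, -0.42 and -0.030, and leaving out Con replicate 1, Con replicate 2 or Con replicate 3 gave -0.42, 0.059 and -0.20. The direction thus turned without Con replicate 2. Ly6c2 was the most variable of the 7 genes: 98.1% of all genes had a smaller pooled within-group SD.

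Markers of monocytes and recruited macrophages had lower HKO means for 14 of 15 measured genes and a median difference of -0.39. The list mixes inflammatory monocytes, named above as carriers of Ly6c2, with macrophages, and does not tell them apart. Limma's adjusted threshold was passed by 1 of the 15, Itgax, an integrin of recruited macrophages and dendritic cells, and 8 had an unadjusted p under 0.05, all lower in HKO. Itgax stood at 3.28, 3.55 and 3.41 in HKO and at 4.29, 4.60 and 4.42 in Con, with a difference of -1.02 ± 0.12 (SE; limma adjusted p = 0.0280), and its HKO mean lay below the median over genes. It missed the threshold without each array in turn, where limma's adjusted p was 0.0961, 0.0621 and 0.110 on leaving out HKO replicates 1, 2 and 3, and 0.0758, 0.149 and 0.0671 on leaving out Con replicates 1, 2 and 3. The mean of the list ran from 4.26 to 4.46 in HKO and from 4.67 to 4.92 in Con, while Ly6c2 itself overlapped. The part of these cells in the Ly6c2 values was not tested.

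T and NK cells can carry Ly6c2 as well, and 0 of 10 of their markers passed limma's adjusted threshold, with 1 at an unadjusted p under 0.05. HKO means were lower for 8 of the 10 and higher for 2, Cd4 (0.38) and Ncr1 (0.14), named after their values were seen. Klrb1c, the NK1.1 antigen, stood at 2.87 ± 0.14 in HKO and 3.42 ± 0.20 in Con (SD, n = 3 each; limma adjusted p = 0.184), and Cd8a, a T cell coreceptor, at 3.26 ± 0.21 in HKO and 3.56 ± 0.22 in Con (SD, n = 3 each; limma adjusted p = 0.494). Only 4 of the 10 lay above the median over genes, and Klrb1c and Cd8a lay below it. For 5 of the 10 (Cd3e, Cd3g, Nkg7, Gzma and Klrb1c) the highest HKO liver was replicate 2 and the highest Con liver was also replicate 2, as for Ly6c2. That was so for 3 of the 15 monocyte and macrophage markers, for 4 of the 17 endothelial markers and for 10.7% of all genes, and the shares in the remaining lists ran from 0% to 13.5%. This tally was chosen after the values were seen, and mice of the same number in the 2 groups are not taken as pairs. The 5 genes mark related cells and are not independent counts, so nothing is read from the tally. The part of T and NK cells in the Ly6c2 values was not tested.

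Ly6h is known from brain, where it acts on nicotinic acetylcholine receptors. Its values were 3.16, 3.10 and 3.003 in HKO livers and 2.53, 2.83 and 2.91 in Con livers. Every HKO liver was above every Con liver, though by only 0.094 between the nearest of them. The difference was 0.33 ± 0.13 (SE), with a 95% interval from 0.042 to 0.62, at a level below the median over genes in both groups, and 10.7% of all genes differed by more. The probe set is not shown to be above background.

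Ly6k is known from testis, where it takes part in sperm function. Its values were 4.63, 4.28 and 4.29 in HKO livers and 4.45, 4.54 and 4.65 in Con livers. HKO replicate 1 lay among the Con livers and the groups overlapped, with a difference of -0.15 ± 0.13 (SE) and a 95% interval from -0.44 to 0.15. A second, dimmer Ly6k probe set ran from 2.77 to 3.05 in HKO and from 2.88 to 3.27 in Con, with a difference of -0.12. Each of the other 6 measured genes had a single probe set.

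No difference near the size of that of Ly6d was measured among its neighbours on chromosome 15. In the RefSeq gene order from Psca to Gpihbp1, 24 of 45 annotated genes were measured, and the rest were not read. The 23 other than Ly6d had differences from -0.64 to 0.33 with a median of -0.11. Of the 17 that are not on the list of 8 names, 0 passed limma's adjusted threshold and 1 had an unadjusted p under 0.05. Groups did not overlap for 5 of the 23 (21.7%), 2 lower and 3 higher in HKO, beside 18.2% of all genes. The stretch was chosen after the values were seen.

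Lynx1, the nearest measured gene on one side and a GPI-anchored modulator of nicotinic receptors, stood at 4.62, 4.42 and 4.11 in HKO and at 4.67, 4.51 and 4.96 in Con (difference -0.33 ± 0.17, SE; limma adjusted p = 0.484). Ly6g6g, the nearest on the other side, stood at 2.84, 2.16 and 2.33 in HKO and at 2.41, 2.70 and 2.55 in Con (difference -0.11 ± 0.18, SE; limma adjusted p = 0.858). Both overlapped between the groups. Further out, Slurp2 was at 0.21 and Slurp1 at -0.20, both secreted members of the fold family. Lypd2 was at 0.17, Ly6k at -0.15, Gml at -0.21 and Cyp11b1, an adrenal steroid hydroxylase, at 0.33 (limma adjusted p = 0.309, the lowest among these neighbours). The largest difference after Ly6d was -0.64 ± 0.30 (SE; limma adjusted p = 0.463) for 9030619P08Rik, a transcribed pseudogene named after its values were seen, whose values were 6.00, 7.30 and 7.10 in HKO and 7.57, 7.34 and 7.39 in Con, with HKO replicate 1 low. Without that liver its difference was -0.24.

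**Figure D3:**
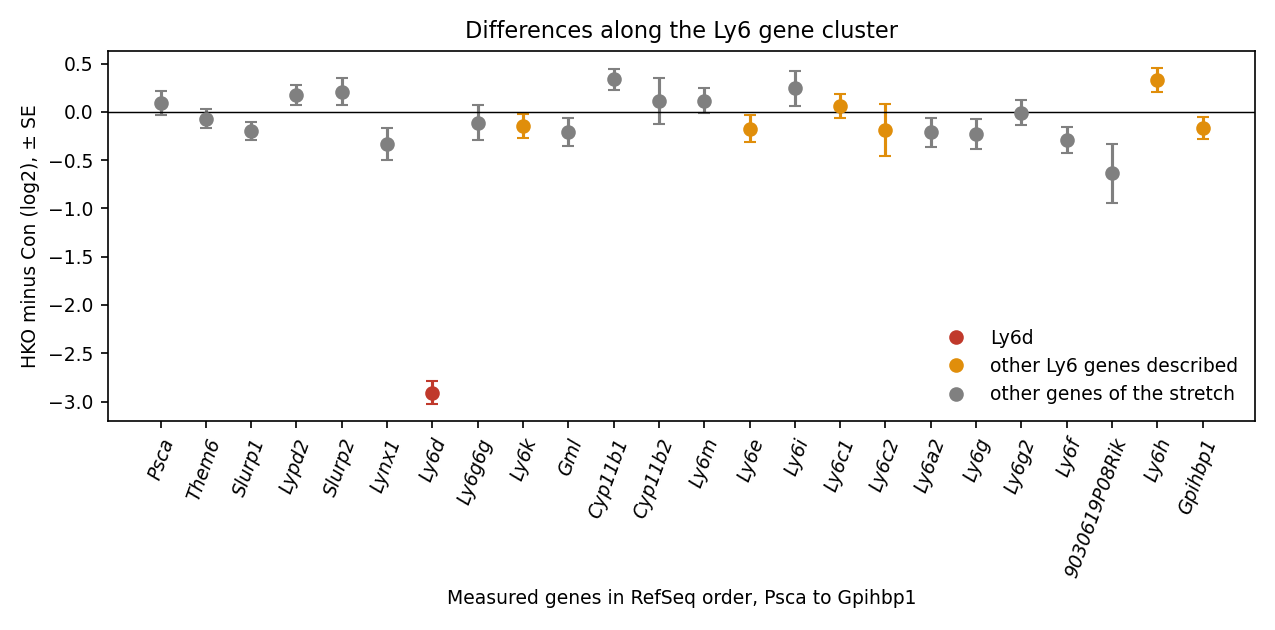
Difference between the groups (HKO minus Con, log2) with limma's SE for the 24 measured genes between Psca and Gpihbp1, in RefSeq order and not to scale. Ly6d lies at -2.91 ± 0.12, and the other 23 lie between -0.64 and 0.33.

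The wider family gave no call. Of 37 measured genes listed as relatives outside the 8 names, 0 passed limma's adjusted threshold in the analysis and in each of the 15 alternatives, and 2 had an unadjusted p under 0.05. The list was drawn up for the Ly6/uPAR fold, but it also holds 9530003J23Rik, a lysozyme-type gene, and Ly6g6f, an immunoglobulin-type protein, which lack it and differed by -0.068 and 0.037. Over all 37, HKO means were higher for 20 and lower for 17, with a median difference of 0.034 and a range from -0.51 to 0.38. The 2 genes at the ends of that range, named after their values were seen, were Plaur and Ly6g5c. Plaur, the urokinase receptor, was at 3.31, 3.78 and 3.98 in HKO and at 4.27, 4.01 and 4.33 in Con (limma adjusted p = 0.328). Ly6g5c was at 3.52, 3.72 and 3.73 in HKO and at 3.18, 3.19 and 3.47 in Con (limma adjusted p = 0.295).

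The 6 relatives with the brightest probe sets were Cd59a, Ly6g2, Cd59b, Lynx1, Ly6g6c and Lypd6, and the groups overlapped for each. Cd59a, which blocks the complement membrane attack complex, stood at 9.61 ± 0.11 in HKO and 9.58 ± 0.021 in Con (SD, n = 3 each), and Ly6g2 at 8.36 ± 0.18 in HKO and 8.37 ± 0.13 in Con (SD, n = 3 each). Their differences were 0.026 ± 0.10 and -0.0094 ± 0.13 (SE). Cd59b, the second complement inhibitor of this kind in mice, was at -0.21 ± 0.16, Lynx1, described among the neighbours of Ly6d, at -0.33 ± 0.17, Ly6g6c at -0.11 ± 0.17 and Lypd6, which is known to act on Wnt signalling, at 0.10 ± 0.18 (SE). Many genes of the cluster are similar in sequence, so a probe set can take signal from a near copy.

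The enzymes that build and attach the GPI anchor were measured for 26 genes. Limma's adjusted threshold was passed by 0 of them, 3 had an unadjusted p under 0.05 and the median difference was 0.017. Pigl, a deacetylase of an early step, stood at 5.90 ± 0.29 in HKO and 5.46 ± 0.022 in Con (SD, n = 3 each; limma adjusted p = 0.321). Pigw, which acylates the inositol of the anchor, stood at 3.94 ± 0.34 in HKO and 4.45 ± 0.22 in Con (SD, n = 3 each; limma adjusted p = 0.345).

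Markers of the cells outside liver parenchyma that are known to carry Ly6d gave no call. Of 12 B lymphoid markers 0 passed limma's adjusted threshold and 0 had an unadjusted p under 0.05. Their mean ran from 2.92 to 3.04 in HKO and from 2.94 to 2.99 in Con, and 11 of the 12 lay below the median over genes. Vpreb3, a chaperone of the pre-B cell receptor, stood at 3.33 ± 0.012 in HKO and 3.15 ± 0.056 in Con, and Cr2, a complement receptor, at 2.31 ± 0.25 in HKO and 2.04 ± 0.16 in Con (SD, n = 3 each). Of 10 squamous epithelial markers 0 passed limma's adjusted threshold and 0 had an unadjusted p under 0.05. Their mean ran from 2.88 to 3.004 in HKO and from 2.95 to 3.01 in Con, and only 1 of the 10 (Sfn) lay above the median over genes. Krt6a, a keratin, stood at 1.86 ± 0.14 in HKO and 2.10 ± 0.15 in Con, and Sfn, an epithelial 14-3-3 protein, at 5.39 ± 0.27 in HKO and 5.54 ± 0.17 in Con (SD, n = 3 each).

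The remaining lists gave no call either. Of 8 cholangiocyte markers 0 passed limma's adjusted threshold and 1 had an unadjusted p under 0.05: Cdh1, an adhesion protein of epithelia, stood at 6.39 ± 0.43 in HKO and 5.69 ± 0.33 in Con, and Krt7, a duct keratin, at 3.28 ± 0.14 in HKO and 3.58 ± 0.29 in Con (SD, n = 3 each). The groups overlapped for both, and the Cdh1 difference of 0.70 was 0.40 with the mean of its probe sets. Of 10 neutrophil markers 0 passed and 2 had an unadjusted p under 0.05: S100a8, a granulocyte calcium binding protein, stood at 2.21 ± 0.077 in HKO and 2.57 ± 0.11 in Con, and Cxcr2, a chemokine receptor, at 3.43 ± 0.067 in HKO and 3.87 ± 0.30 in Con (SD, n = 3 each). Only 1 of the 10 neutrophil markers lay above the median over genes, and S100a8 and Cxcr2 lay below it. Of 10 hepatocyte markers 0 passed and 2 had an unadjusted p under 0.05: Serpina1a, a protease inhibitor of plasma, stood at 9.04 ± 0.16 in HKO and 8.63 ± 0.043 in Con, and Cps1, which starts the urea cycle, at 11.2 ± 0.14 in HKO and 10.9 ± 0.031 in Con (SD, n = 3 each). Over the 11 lists of partners, interferon response, anchor enzymes and cell type markers, 147 different genes were measured. Of these, 0 passed limma's adjusted threshold as higher in HKO and 1 (Itgax) as lower, beside 0.203% of all genes in either direction. With 3 arrays a group, missing the threshold is not read as no difference.

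**Figure D4:**
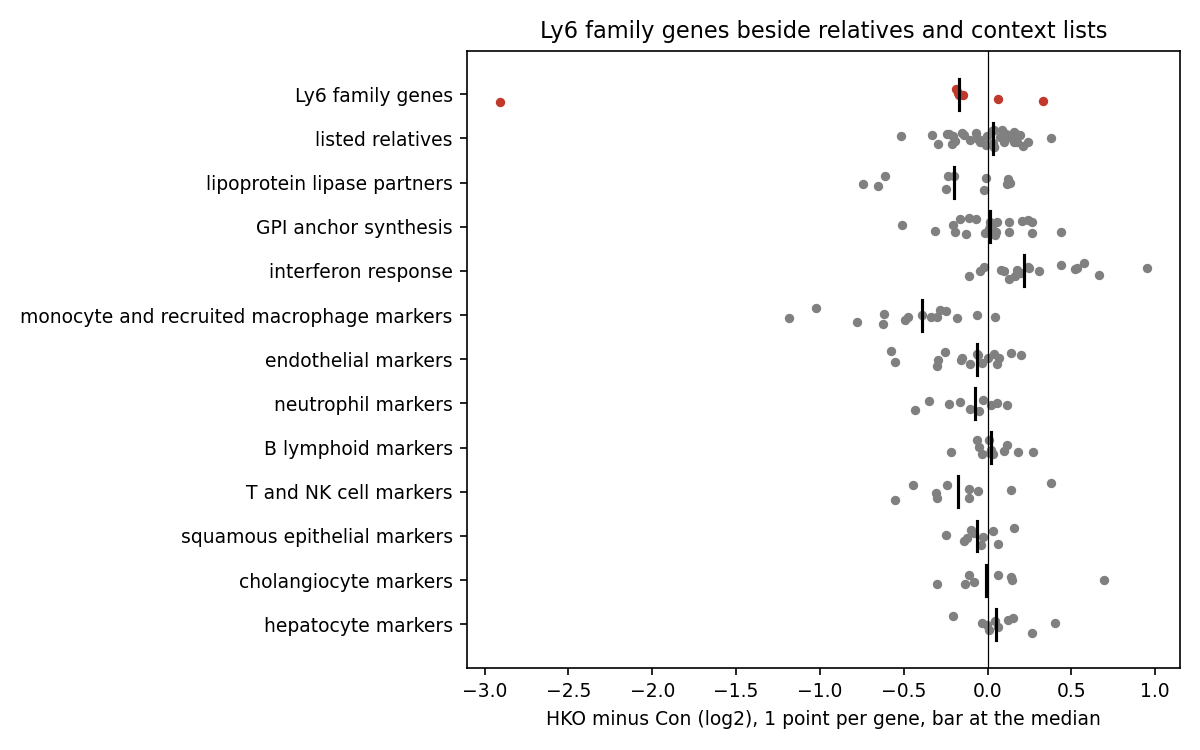
Differences between the groups (HKO minus Con, log2), 1 point per gene and a bar at the median, for the 7 Ly6 family genes in red and, in grey, the 37 relatives and the 11 other lists. Ly6d at -2.91 is the lowest point drawn, and the relatives lie between -0.51 and 0.38 around a median of 0.034.

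Genes whose values followed those of Ly6d most closely across the 6 livers were sought by Pearson's correlation among 1053 genes with a formal symbol and a span of at least 1 log2 unit. The correlation is a description over 6 arrays that fall into separate groups, so it mostly ranks genes by how cleanly the groups part. The closest were Tubb2a (r = 0.997), a beta tubulin, Anxa2 (0.994), a calcium-dependent membrane-binding protein, Lamb3 (0.994), a laminin chain, Gprc5b (0.993), an orphan receptor, and Plat (0.987), tissue plasminogen activator. Tubb2a stood at 5.90, 6.04 and 6.22 in HKO and at 8.30, 8.47 and 8.37 in Con. Plat stood at 3.23, 3.27 and 3.42 in HKO and at 4.15, 4.25 and 4.31 in Con. In all 5 the HKO livers were the low ones, as for Ly6d. Taken as deviations from the group means, the correlation with Ly6d was lower in these 5, from 0.22 (Plat) to 0.60 (Gprc5b).

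The genes with the most opposite values were Cyp2c50 (r = -0.996), a cytochrome P450, Acpp (-0.991), a phosphatase, the pseudogenes Zfp133-ps (-0.986) and Adh6-ps1 (-0.984), and the microRNA gene Mir1948 (-0.983). Over deviations from the group means the correlation of these 5 ran from -0.97 (Zfp133-ps) to -0.27 (Cyp2c50). Cyp2c50 stood at 9.57, 9.50 and 9.59 in HKO and at 8.59, 8.55 and 8.62 in Con. Among the 1053 genes, 51 had an r above 0.9 with Ly6d and 54 an r below -0.9.

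**Figure D5:**
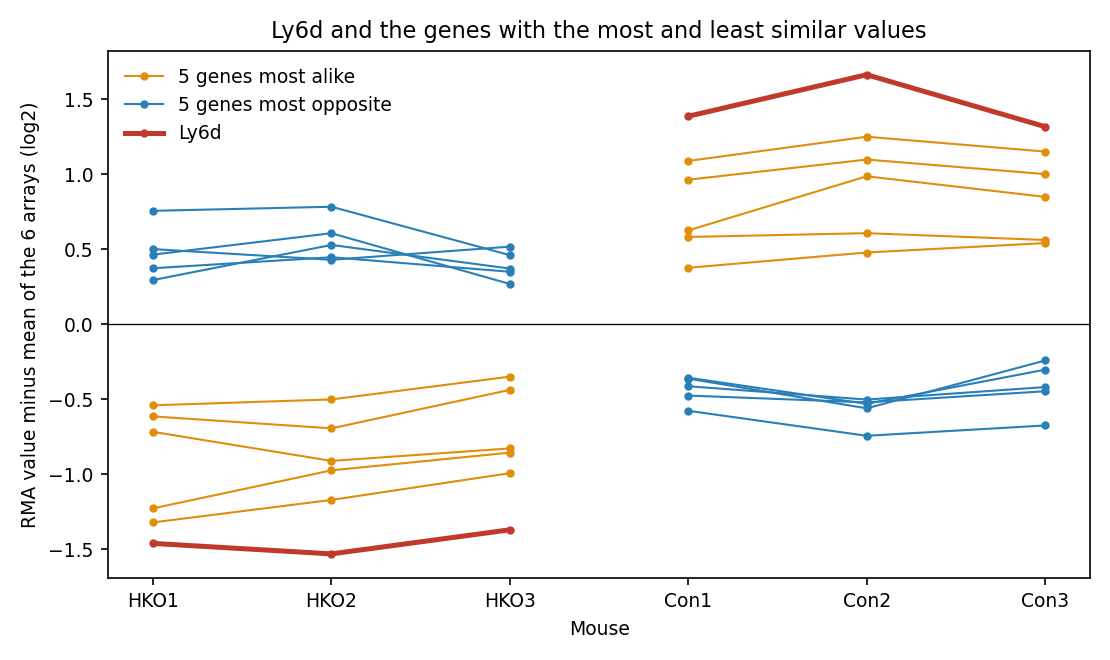
RMA value minus the gene's mean over the 6 arrays (log2) in each liver, HKO left of Con, for Ly6d (red), the 5 genes with the highest (orange) and the 5 with the lowest (blue) correlation with it; lines join the livers of a group for 1 gene and mark no order. Ly6d and the 5 closest genes are low in all 3 HKO livers and high in all 3 Con livers.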

How the data were processed

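Per the submitters' processing notes, the log2 values that the authors deposited for each probe set were made with RMA in R 3.3.0; RMA corrects the background, sets the arrays to a common distribution and compresses changes of dim genes. Biotinylated cDNA came from 400 ng of total RNA per the labels' protocols. The sources used here do not give the array design's build.

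A platform annotation gave 1 gene to 23521 of 41345 probe sets. Symbols were checked by Entrez identifier in RefSeq (GRCm38.p6), where 23328 were found and 0 changed. Genes were compared with limma 3.58.1 in R 4.3.3 (lmFit, eBayes, group as the only term, two-sided, Benjamini-Hochberg over 22180 genes, threshold 0.05), tested on simulated data. Arrays have no read depth, so the 3 mice per group limit the precision. Promoter windows were searched with Python 3.11.15 and aligned with Biopython 1.88.

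The members and lists were chosen with earlier results of these data known. Named genes were the 8 listed, Snai2, the 6 relatives with the brightest probe sets, up to 3 called genes or otherwise the 2 with the lowest p of each list, 4 measured neighbours of Ly6d on each side, and the 5 genes most and least correlated with it; any other gene was picked with its values in view or for its place in a list or the cluster. The alternatives changed the normalization, centring, a filter on low values, probe sets, variance model, array weights, a replicate block and the arrays used.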

Additional observations from a re-analysis of the deposited data

How the results depend on the processing

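Of the values given for Ly6d, its difference stayed within 1 pooled SD of -2.91 under all 15 alternatives, from -2.98 to -2.81. Changes of the variance model, the replicate block, the filter and the probe sets could not move that difference, so they are no check of it. The count of genes past the threshold, 45, was 138 among genes at or above the median level, 215 with a variance trend and 3 with the replicate block, and it ran from 4 to 32 when 1 array was left out. The count among the 147 genes of the other lists, 1, was 0 among genes at or above the median level, where Itgax was not tested, 0 with the replicate block, 3 with a variance trend, and 0 without any 1 array (lowest and highest both 0). The relatives gave 0 under every alternative. The median difference of the 6 members other than Ly6d ran from -0.16 to -0.016 when 1 array was left out, and was not computed among genes at or above the median level, where Ly6c1, Ly6c2 and Ly6h drop out. The cause of these shifts was not tested.

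Same-numbered mice did not deviate together (correlations of 0.032, 0.016 and 0.021), so the numbers are not taken as pairs. With the replicate block, limma's adjusted p of Itgax was 0.0514. With 3 arrays a group the 95% intervals of the Ly6 family genes are wide, as for Ly6c2 (-0.81 to 0.43) and Ly6h (0.042 to 0.62). These intervals are not adjusted for the number of genes, and the genes were listed with results of this comparison known. The intervals are therefore a description of precision and not a test of any of these genes. Dim probe sets are compressed.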

Other observations

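Ly6a2, the next measured gene after Ly6c2 in the RefSeq order, was in none of the lists. It stood at 4.45, 4.47 and 4.75 in HKO livers and at 4.63, 5.07 and 4.61 in Con livers, a difference of -0.21 ± 0.15 (SE; limma adjusted p = 0.641). Ly6m, Ly6i, Ly6g and Ly6f, which also lie in the cluster, had differences of 0.12, 0.24, -0.23 and -0.29, with groups that overlapped for each. Them6, between Psca and Slurp1, was at -0.070, and Cyp11b2, an aldosterone synthase of the adrenal gland, was at 0.11. These genes were picked for their place in the cluster, with their values in view.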
